A study of Mus musculus with 2 samples.

Results

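The genes of Wnt signalling at the cell surface, with the core of the machinery that reads the signal inside the cell, were followed in hippocampal RNA of mice fed astaxanthin (ASX). They were chosen by name. A gene belonged to the set when a mouse probe present on both arrays carried a RefSeq accession whose symbol began with Wnt, Fzd, Sfrp or Dkk followed by a digit, or was Lrp5, Lrp6, Axin1, Axin2, Ctnnb1, Apc or Gsk3b. This gave 43 genes, read by 57 probes, of 16533 genes with a symbol on the arrays. There were 19 Wnt ligands, 9 Frizzled receptors, 2 Lrp co-receptors, 8 Sfrp and Dkk antagonists and 5 intracellular components. Fzd9 was not analysed here.

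The ASX group was made up of male C57BL/6J mice that for 4 weeks ate chow in which 0.5% by weight was a powder with a content of 2% astaxanthin, a red carotenoid, from the alga Haematococcus pluvialis. The control group was made up of male C57BL/6J mice whose chow held 0% of that powder and a placebo powder. Mice of both groups were 11 weeks old and weighed 26 to 28 g, and 1 week of acclimatization preceded the diets. Hippocampal RNA of the 2 groups was hybridised together on 2 two-colour arrays. The ASX RNA was labelled with Cy5 on array 1 and with Cy3 on array 2, so the pair forms a dye swap. The title of each array names 4 mice. Whether their RNA was pooled is not stated in the labels. The arrays were counted as 1 replicate. No test of the diet is possible, and every SD below is the spread between the 2 arrays, which is technical.

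Wnt proteins are secreted, lipid-modified ligands that bind a Frizzled receptor together with the co-receptor Lrp5 or Lrp6. Without a ligand, a complex built on Axin and Apc lets the kinase Gsk3b mark beta-catenin, the product of Ctnnb1, for destruction. With a ligand, beta-catenin escapes, enters the nucleus and acts with Tcf and Lef factors on target genes. Sfrp proteins bind Wnts outside the cell, and Dkk1, Dkk2 and Dkk4 act on the Lrp co-receptors. In the adult hippocampus, Wnt ligands are known as signals to the neural stem cells of the dentate gyrus and to synapses.

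A log2 ratio below is the log2 of the ASX signal over the control signal on 1 array, after background correction and loess normalization, so a positive value means more signal from the ASX RNA. A log2 signal is the normalized brightness of 1 RNA on 1 array, and it is compared only within a probe. Array 1 was brighter than array 2 for most of these probes, so the diets are compared within each array. A gene counted as measured when its probe stood well above background in each of the 4 channels, that is for each RNA on each array, and its value is that of its brightest measured probe. In bulk tissue, fewer cells of a type and less RNA per cell cannot be told apart.

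Of the 43 genes, 36 were measured. Wnt2b, Wnt3a, Wnt8a, Wnt8b, Wnt10b, Dkk1 and Dkk4 were not well above background for either RNA on either array and have no ratio here. A difference of 1.5-fold or more on each array was found for 0 of the 36 upward in the ASX RNA and for 0 downward. Over all 23603 measured genes and transcripts, 0.0636% were that much higher and 0.0212% that much lower, 0.0847% in either direction. At a looser size of 1.2-fold on each array, 1 gene of the set, Wnt9a, was higher and 0 were lower, against 1.44% and 0.314% over all measured genes and transcripts, 1.75% in either direction. Among the 13318 of these with a gene symbol, 31 were that much higher and 44 that much lower.

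Small differences were more often downward than upward. The ratio was above 0 on both arrays for 6 of the 36 genes (16.7%) and below 0 on both for 17 (47.2%), and it had opposite signs on the arrays for 13. Over all measured genes and transcripts these shares were 22.2% above and 23.0% below, 45.2% on one side or the other, and over the 13318 with a gene symbol they were 14.3% above and 26.4% below. The median log2 ratio of the set was -0.041, with -0.066 on array 1 and -0.034 on array 2. The median was -0.0042 over all measured genes and transcripts and -0.019 over those with a symbol. In the mean of the arrays 33 of the 36 genes (91.7%) lay within 1.2-fold, against 96.3% of all measured genes and transcripts. Of those with a symbol 98.6% did. The absolute mean exceeded the SD between the arrays for 15 of the 36 genes (41.7%), against 35.4% of all. These directions depend on the scaling. With median centring the median of the set was -0.097, beside -0.104 over all measured genes and transcripts. The spike-in scaling subtracted the same constant, 0.38, from every log2 ratio. That constant was the median over the spike-in control probes of their mean log2 ratio. The log2 ratios of single spike-in probes ran from -2.34 to 3.24 on array 1 and from -2.48 to 3.11 on array 2. For most of these probes the sign turned with the dyes. The means of all spike-in probes over the 2 arrays ran from 0.27 to 0.41. With this scaling the median of all measured genes and transcripts shifted by -0.38, and no gene of the set remained above 0 on both arrays. Relative to the median of all measured genes and transcripts, the mean of the 2 arrays was higher for 9 of the 36 genes and lower for 14 under all 10 processing settings that used both arrays, and 13 changed side. That holds for means, and among those genes Fzd6, Sfrp4, Wnt1, Wnt11 and Fzd2 had ratios of opposite sign on the arrays. Not all of the 10 settings could differ here. Taking a constant from every ratio leaves the distance to the median unchanged. Spike-in scaling thus gave the main relative values again, 0.386 for Wnt9a in each. Both kinds of deposited log ratio gave almost identical values. Other brightness filters kept the ratios of the 36 genes and moved only the median. A side or relative range shared by all 10 settings therefore rests on fewer separate checks.

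**Figure D1:**
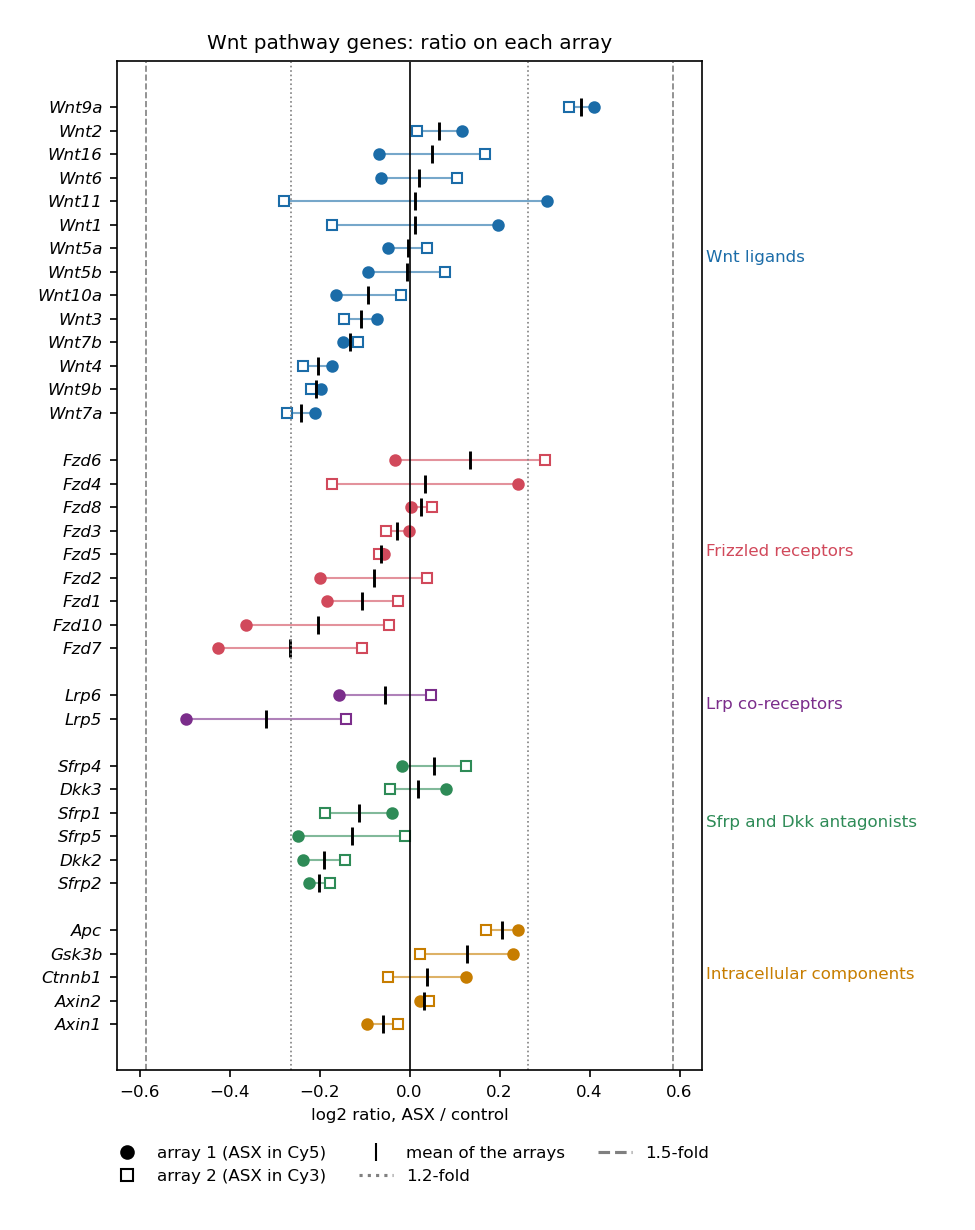
Log2 ratio of ASX over control signal for the 36 measured genes, grouped by role, with a point for each array and a mark for the mean. The highest mean is that of Wnt9a (0.38) and the lowest that of Lrp5 (-0.32), and no gene reaches 1.5-fold on both arrays.

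Among the Wnt ligands, 14 of 19 were measured, and the ligand with the highest ratio of ASX over control was Wnt9a, known from joint development. Its log2 signal was 10.10 on array 1 and 9.60 on array 2 in the ASX RNA, against 9.69 and 9.25 in the control RNA. The ASX signal was thus the higher one on each array, by log2 ratios of 0.41 and 0.35. The mean was 0.38 ± 0.040 (SD of 2 arrays), a 1.30-fold higher signal, at percentile 99.0 of all measured genes and transcripts. Wnt9a rests on 1 probe, since its other probe was not well above background. Under the spike-in scaling its mean was 0.0023, the lowest over the settings, and relative to the median of all genes it lay between 0.36 and 0.40. Its neighbour on the same chromosome, Wnt3a, was not measured.

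Wnt7a, a ligand that acts on neural progenitors and at synapses, stood at the other end of the ligands. In the ASX RNA its log2 signal was 9.58 on array 1 and 9.04 on array 2, against 9.79 and 9.31 in the control RNA. The ASX signal was the lower one on both arrays, with log2 ratios of -0.21 and -0.27. The mean was -0.24 ± 0.044 (SD of 2 arrays), that is 0.847 of the control signal. Relative to the median of all genes it lay between -0.26 and -0.23 over the settings.

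Wnt9b and Wnt4, both ligands with known roles in kidney development, were lower on both arrays by similar amounts. Wnt9b had a log2 signal of 7.14 and 6.98 in the ASX RNA, against 7.34 and 7.20 in the control RNA, and its mean log2 ratio was -0.21 ± 0.017. The size for Wnt9b depended on the processing: it was -0.38 with the scanner's log ratio, and relative to the median of all genes it ran between -0.37 and -0.039 over the settings. Wnt4 had 8.71 and 8.23 in the ASX RNA, against 8.88 and 8.47 in the control RNA, and its mean was -0.20 ± 0.045, with a relative range of -0.25 to -0.16. Wnt7b, the close relative of Wnt7a that promotes dendrite growth in hippocampal neurons, had 10.65 and 9.99 in the ASX RNA, against 10.80 and 10.11 in the control RNA. Its log2 ratios were -0.15 and -0.12, with a mean of -0.13 ± 0.023. For these 3 ligands and Wnt7a the gap between the diets was in the same direction on each array and larger than the SD between the arrays.

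Wnt3, a ligand made by hippocampal astrocytes that promotes the neuronal fate of adult stem cells, gave no single direction. Its brighter probe had log2 ratios of -0.072 and -0.15 and a mean of -0.11 ± 0.052, and its other measured probe had a mean of 0.0038. Wnt5a, which acts mostly without beta-catenin, had log2 ratios of -0.047 and 0.039 on arrays 1 and 2, and Wnt5b had -0.092 and 0.079. Wnt2 had log2 ratios of 0.12 and 0.016, and Wnt10a had -0.16 and -0.019. The signs differed between the arrays for both Wnt5 genes, while Wnt2 and Wnt10a kept theirs at small size.

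For Wnt11 and Wnt1 the sign of the ratio turned with the dyes, so the diets could not be ordered. Wnt11 gave log2 ratios of 0.30 and -0.28 on arrays 1 and 2, the only gene of the set at least 1.2-fold apart on both arrays in the direction of the dye. Wnt1, a ligand needed for the midbrain in the embryo, was read by a probe with 10 spots on each array. On array 1 its spots averaged 0.20 ± 0.13 (SD over spots) and 10 of 10 were above 0. On array 2 they averaged -0.17 ± 0.072 and 0 of 10 were above 0. Wnt16 had log2 ratios of -0.068 and 0.17, and Wnt6 had -0.063 and 0.11, also of opposite sign.

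Several ligand genes lie next to one another in the genome, by the RefSeq table of GRCm38.p6. Wnt9b and Wnt3 on chromosome 11 had means of -0.21 and -0.11. Wnt6 and Wnt10a on chromosome 1 had means of 0.022 and -0.091, a pair with different signs. Wnt1 on chromosome 15 had a mean of 0.012, and its neighbour Wnt10b was not measured.

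**Figure D2:**
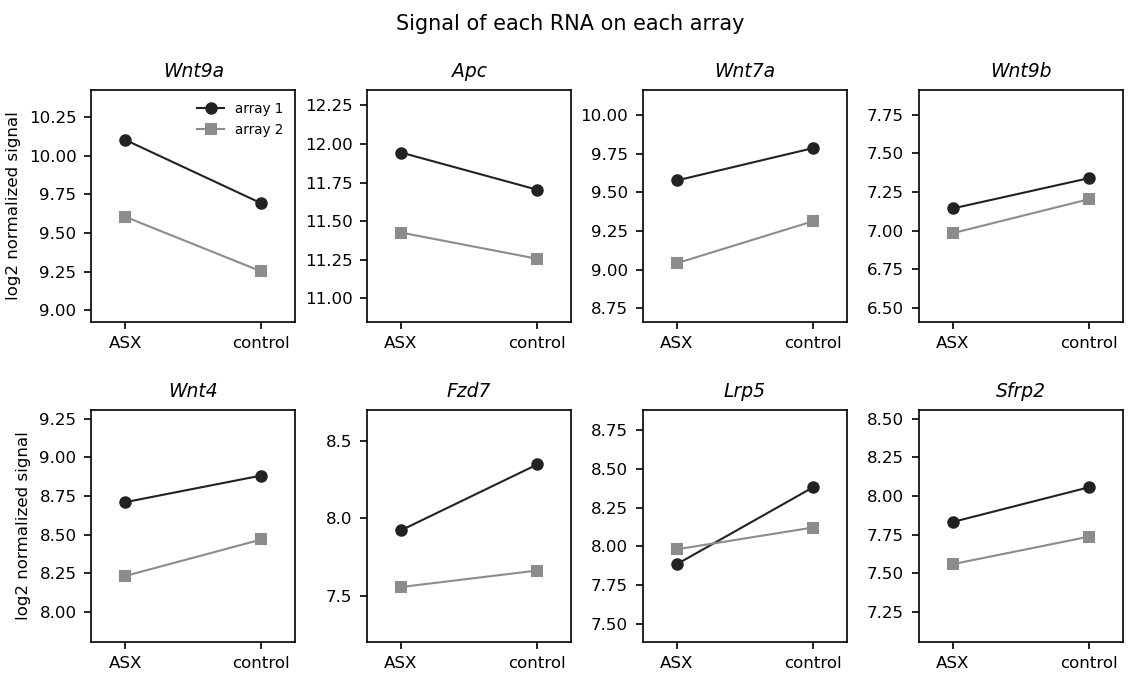
Normalized log2 signal on each array in the ASX RNA and in the control RNA for the genes at the ends of the set. The lines of Wnt9a and Apc lie higher for ASX on both arrays, and those of Wnt7a, Fzd7, Lrp5 and Sfrp2 lie lower.

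The 250 bases before the transcription start of the ligands at the top and bottom of the range, and of the Frizzled gene with the lowest ratio, are shown to let their promoters be compared. They are RefSeq sequences of GRCm38.p6 and are read 5′ to 3′ on the strand of the gene. Wnt9a lies at chr11:59306680-59306929 on the plus strand, Wnt7a at chr6:91411354-91411603 on the minus strand and Fzd7 at chr1:59481897-59482146 on the plus strand. Capitals made only of G and C mark GC boxes, and capitals with A in them mark the core word of Tcf and Lef sites.
Wnt9a: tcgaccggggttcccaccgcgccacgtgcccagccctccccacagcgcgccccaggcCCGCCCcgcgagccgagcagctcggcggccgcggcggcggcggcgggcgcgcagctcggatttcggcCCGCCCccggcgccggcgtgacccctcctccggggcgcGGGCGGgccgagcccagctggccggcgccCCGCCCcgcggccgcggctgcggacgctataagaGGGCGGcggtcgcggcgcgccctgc
Wnt7a: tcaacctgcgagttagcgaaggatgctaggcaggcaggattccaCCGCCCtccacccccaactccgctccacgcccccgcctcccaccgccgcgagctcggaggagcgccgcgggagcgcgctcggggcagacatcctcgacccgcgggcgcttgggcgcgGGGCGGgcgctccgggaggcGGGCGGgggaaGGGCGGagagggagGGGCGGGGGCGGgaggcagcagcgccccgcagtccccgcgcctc
Fzd7: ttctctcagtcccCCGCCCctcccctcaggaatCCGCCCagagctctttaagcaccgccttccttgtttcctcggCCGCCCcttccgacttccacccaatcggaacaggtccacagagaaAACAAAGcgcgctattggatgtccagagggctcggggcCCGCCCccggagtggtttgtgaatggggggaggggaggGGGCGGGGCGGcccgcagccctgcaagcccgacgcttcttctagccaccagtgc
The Wnt9a window holds 84.4% G and C and 5 GC boxes, that of Wnt7a 77.6% and 6, and that of Fzd7 65.2% and 6. The GC box was searched as GGGCGG, on both strands and with overlaps counted. The Tcf and Lef core was searched as CTTTGAA, then as CTTTGAT, as CTTTGTA and as CTTTGTT, on both strands. It is present in the Fzd7 window as CTTTGTT on the strand opposite to the gene, 130 to 124 bases before the start, and these letters are not in the other 2 windows. The table held 31 promoters of 27 genes of the set. Of these 31, 22 (71.0%) held a GC box, against 32.7% of all 32851 promoters in the table, and 4 (12.9%) held a Tcf and Lef core, against 14.8%. The 4 belonged to Fzd7, Wnt11, Wnt5b and Dkk1. A match describes the letters and does not show a site in use.

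The Frizzled genes, which encode the receptors, were all measured, and 1 of the 9 (11.1%) was above 0 on both arrays and 5 (55.6%) were below. Over genes with a symbol 14.3% were above and 26.4% below. Fzd7, a receptor found on many stem cells, had the lowest value of the 9. Its log2 signal was 7.92 and 7.56 in the ASX RNA, against 8.35 and 7.66 in the control RNA. Both arrays put the ASX signal lower, but by unequal amounts, with log2 ratios of -0.43 and -0.11 and a mean of -0.27 ± 0.23 (SD of 2 arrays). Its other measured probe had a mean of -0.084. Relative to the median of all genes Fzd7 lay between -0.30 and -0.17 over the settings. Fzd10 behaved alike, with log2 ratios of -0.36 and -0.045 and a mean of -0.20 ± 0.22, and its other measured probe had -0.078. For Fzd10 most of the mean came from array 1, and its relative range was wide, between -0.39 and -0.064.

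Fzd1, which serves the beta-catenin branch, had a log2 signal of 10.35 and 9.95 in the ASX RNA, against 10.53 and 9.97 in the control RNA, and a mean of -0.10 ± 0.11. Fzd3, a receptor that guides growing axons, had -0.0013 and -0.053 with its brighter probe and a mean of 0.18 with its other, so its probes disagreed in sign. Fzd6, a receptor of planar cell polarity, had the highest mean of the family with log2 ratios of -0.033 and 0.30. Fzd4 and Fzd2 also had opposite signs, with 0.24 and -0.17 for Fzd4 and -0.20 and 0.040 for Fzd2. Fzd5 (-0.056 and -0.068) and Fzd8 (0.0029 and 0.049) lay close to 0.

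Of the co-receptors, Lrp5 had the lowest mean of the whole set and Lrp6 lay near 0. The log2 signal of Lrp5 was 7.89 and 7.98 in the ASX RNA, against 8.38 and 8.12 in the control RNA. The ASX signal was the lower one on each array. The log2 ratios were -0.50 and -0.14 and the mean was -0.32 ± 0.25 (SD of 2 arrays), that is 0.802 of the control signal, at percentile 0.402 of all measured genes and transcripts. The sizes on the 2 arrays differed by more than 1.2-fold, and the second array alone put Lrp5 within that fold. Lrp6 had log2 ratios of -0.16 and 0.048.

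**Figure D3:**
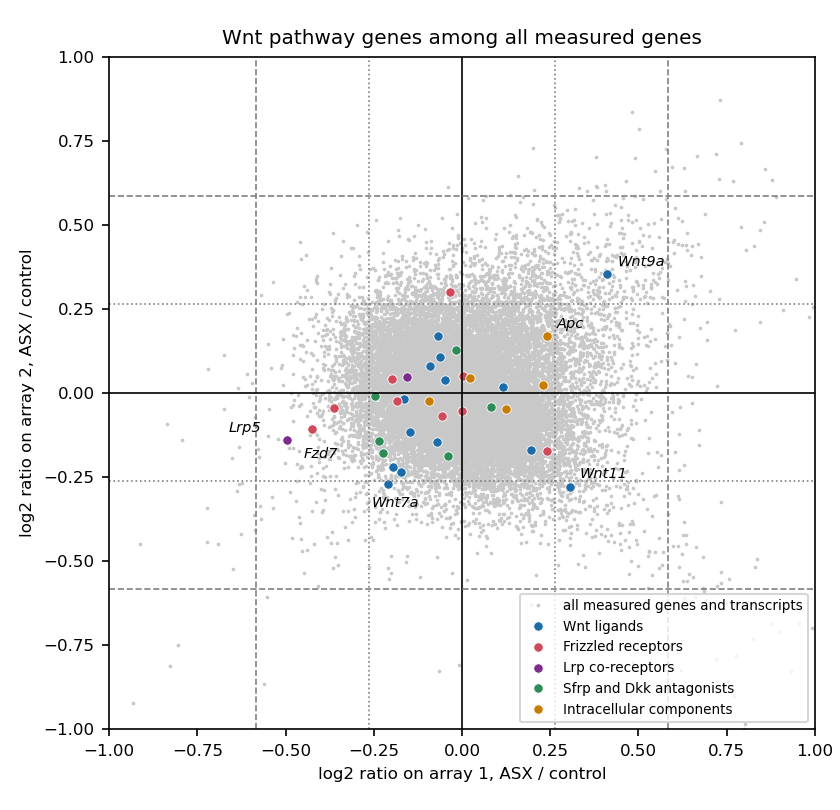
Log2 ratio of ASX over control on array 2 against that on array 1 for the genes of the set, drawn over all measured genes and transcripts. Wnt9a is the 1 gene of the set past 1.2-fold in the same diet direction on both arrays, and Wnt11 lies past 1.2-fold in the direction of the dye; 21 other genes and transcripts fall outside the axes.

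Among the few secreted antagonists more genes were lower than higher. Of 8 genes 6 were measured, 0 were above 0 on both arrays and 4 (66.7%) were below, with a median of -0.12. Over genes with a symbol 14.3% were above and 26.4% below. Sfrp2, a Wnt-binding antagonist, had a log2 signal of 7.83 and 7.56 in the ASX RNA, against 8.06 and 7.74 in the control RNA. Its ASX signal was the lower one on both arrays, with log2 ratios of -0.22 and -0.18 and a mean of -0.20 ± 0.033. Its relative range over the settings was -0.23 to -0.097. Dkk2, which acts on the Lrp co-receptors, had 6.86 and 6.74 in the ASX RNA, against 7.10 and 6.88 in the control RNA, and a mean of -0.19 ± 0.066. Dkk2 was close to background and changed side of the median of all genes in 1 of the 10 settings.

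Sfrp1, another Wnt-binding antagonist, had log2 ratios of -0.039 and -0.19 and a mean of -0.11 ± 0.10. Sfrp5 had -0.25 and -0.010, so its difference was seen mainly on array 1. Like Dkk2, Sfrp5 changed side of the median of all genes in 1 of the 10 settings. Dkk3, a relative abundant in hippocampal pyramidal neurons, had 0.082 and -0.043. Sfrp4 had -0.017 and 0.13, and the last pair of genes differed in sign between the arrays. Dkk1, the antagonist whose loss is known to raise neurogenesis in old mice, was not measured.

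**Figure D4:**
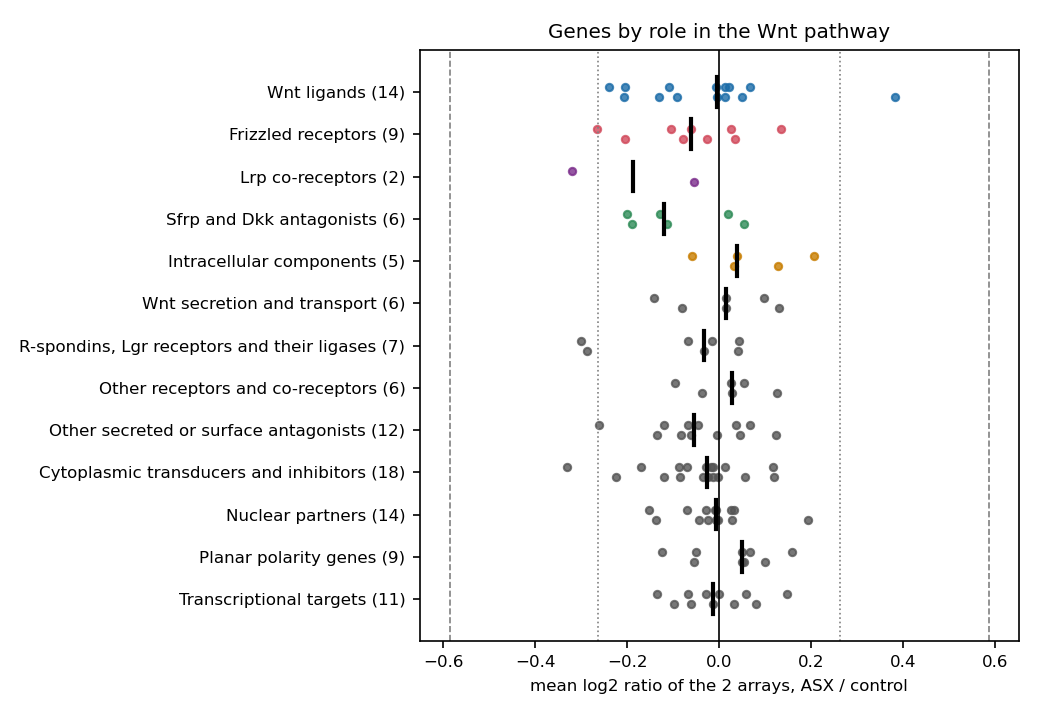
Mean log2 ratio of ASX over control for each measured gene by role, with the median of each role as a line, and below them the 8 lists of other pathway genes. The medians are -0.0051 for the Wnt ligands, -0.062 for the Frizzled receptors, -0.19 for the Lrp co-receptors, -0.12 for the antagonists and 0.039 for the intracellular components.

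Inside the cell, 3 of 5 components (60%) were above 0 on both arrays and 1 (20%) was below. Over genes with a symbol these shares were 14.3% and 26.4%. With median centring the log2 ratios were 0.066 and -0.047 for Apc, 0.065 and -0.15 for Gsk3b and -0.095 and -0.087 for Axin2. None of the 3 was then above 0 on both arrays, while the median over all measured genes and transcripts was -0.104. With the scanner's log ratio Gsk3b had 0.24 and -0.0145. Apc, a scaffold of the complex that destroys beta-catenin, had the largest mean ratio of the 5. Its log2 signal was 11.94 and 11.43 in the ASX RNA, against 11.70 and 11.26 in the control RNA. The ASX signal was higher on both arrays, by 0.24 and 0.17, with a mean of 0.21 ± 0.050 (SD of 2 arrays). All 4 measured probes of Apc had positive ratios on both arrays, and their means ran between 0.19 and 0.36. One of them has 10 spots per array. Its spots averaged 0.35 ± 0.045 (SD over spots) on array 1 and 0.097 ± 0.032 on array 2, and 10 of 10 were above 0 on each. Under the spike-in scaling the mean of Apc was -0.17, and relative to the median of all genes it lay between 0.11 and 0.25.

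Gsk3b, the kinase of the complex, had log2 ratios of 0.23 and 0.023 and a mean of 0.13 ± 0.15, and its other measured probe had a mean of 0.037. Ctnnb1 had log2 ratios of 0.13 and -0.047. Its probe with 10 spots per array had 3 of 10 spots above 0 on array 1 and 10 of 10 on array 2, so the transcript of beta-catenin showed no steady direction. Axin2, itself a target gene that beta-catenin induces, had a log2 signal of 9.68 and 9.51 in the ASX RNA, against 9.66 and 9.47 in the control RNA. Its mean of 0.033 ± 0.014 is a difference far below 1.2-fold. Axin1 had -0.093 and -0.025.

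Probes of the same gene could be set beside one another for 8 genes of the set with more than 1 measured probe. In 6 of them the probe means all lay on one side of 0: Apc, Ctnnb1 and Gsk3b above and Fzd7, Fzd10 and Wnt5b below. Fzd3 and Wnt3 were the exceptions. Over the 4549 genes with a symbol and more than 1 measured probe the share on one side was 59.7%. Between the arrays, Pearson's r of the ratios was 0.29 and Spearman's rho 0.26 across the 36 genes, against -0.029 and -0.089 over all measured genes and transcripts and -0.25 and -0.27 over those with a symbol. These describe points that share the same 2 RNA samples and 1 dye swap.

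The other genes of the pathway gave 94 genes in 8 lists, of which 83 were measured. None was at least 1.5-fold apart on both arrays, against 0.0847% of all measured genes and transcripts. At 1.2-fold on each array 0 were higher and 1 was lower, against 1.44% and 0.314% of all measured genes and transcripts. Among the 13318 measured genes with a symbol, 31 were higher and 44 lower at that size. The lower gene of the 83 was Lgr5, a receptor for R-spondins that marks some stem cells. Its log2 signal was 7.68 and 7.34 in the ASX RNA, against 7.95 and 7.64 in the control RNA, and its mean log2 ratio was -0.29 ± 0.021. Rspo1, an R-spondin that strengthens Wnt signals, had 8.37 and 7.94 in the ASX RNA, against 8.72 and 8.19 in the control RNA, with a mean of -0.30 ± 0.077. In all, 6 of the 83 (7.2%) were above 0 on both arrays and 21 (25.3%) were below, and their median was -0.014. Over genes with a symbol 14.3% were above and 26.4% below, with a median of -0.019. The share below and the median of the 83 genes were thus near those of genes with a symbol.

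Among the antagonists outside the Sfrp and Dkk families, 4 of 12 measured genes (33.3%) were below 0 on both arrays and 0 above. Over genes with a symbol 26.4% were below and 14.3% above. Dkkl1, a relative of Dkk3, had log2 ratios of -0.22 and -0.30, and Wif1, which binds Wnts, had -0.15 and -0.092. Of the cytoplasmic transducers and inhibitors, 1 of 18 (5.6%) was above and 7 (38.9%) were below on both arrays. Dact2 had -0.52 and -0.14, Dact1, a partner of Dishevelled, had -0.27 and -0.068, and Tnks, which marks Axin for destruction, had -0.15 and -0.30. These genes stayed below the median of all genes in all 10 settings except Wif1, which was above it in 1.

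Of the 14 measured nuclear partners, 12 had ratios of opposite sign on the arrays. The ratio was above 0 on both arrays for 1 (7.1%) and below for 1 (7.1%). These shares over genes with a symbol were 14.3% and 26.4%. Tle3, a co-repressor of Tcf factors, had log2 ratios of 0.24 and 0.14, and Ctbp1, another co-repressor, had -0.051 and -0.036. Of 11 measured target genes 1 (9.1%) was above and 3 (27.3%) were below on both arrays, against 14.3% and 26.4% over genes with a symbol. Jag1, a Notch ligand, had 0.094 and 0.20. Ccnd1, the cyclin of the start of the cell cycle, had -0.14 and -0.13. Ccn4 had -0.032 and -0.17. Axin2 and Ccnd1, both widely used as readouts of the pathway, thus had means of opposite sign and under 1.2-fold; with median centring or spike-in scaling the mean of Axin2 was also below 0.

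In the lists for secretion and planar polarity the values were small. Porcn, the enzyme that attaches the lipid to Wnts, had log2 ratios of 0.068 and 0.13, and Notum, which removes it, had -0.18 and -0.097. Invs had 0.062 and 0.14, Vangl1 had -0.13 and -0.12 and Vangl2, a core polarity protein, had -0.0012 and -0.10. Lrp4, a co-receptor of the same family as Lrp5, had -0.12 and -0.071. Under the spike-in scaling the means of Tle3, Jag1, Porcn and Invs were below 0 too. Porcn had a mean below 0 in 2 of the 10 settings, and the others in 1 each.

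Markers of the tissue and of its neighbours were read from the same arrays. Over genes with a symbol, 14.3% were above 0 on both arrays and 26.4% below. All 7 hippocampal markers with a probe were measured, and 1 was above 0 on both arrays and 0 below. Their signal, summed over the same probes in each RNA, was 54409.8 and 39466 in the ASX RNA, against 55392 and 37831 in the control RNA. Such a sum is set by its brightest probes. Of 9 measured markers of thalamus and habenula, 7 were below 0 on both arrays, and their summed signal was 9889.95 and 7365 in the ASX RNA, against 11511 and 7449 in the control RNA. Of 8 striatal markers 7 were below 0, with sums of 23846 and 15911 in the ASX RNA, against 29564 and 21784 in the control RNA. Of 6 ependymal markers 5 were below 0, with sums of 8929.6 and 6659 in the ASX RNA, against 10535 and 7459 in the control RNA. Of 13 meningeal markers 8 were above 0 and 0 below, with sums of 173021 and 100877 in the ASX RNA, against 125827 and 109650 in the control RNA. On array 2 that sum ran against the count of genes. Ptgds, the brightest of the list, had log2 ratios of 0.63 and -0.21, and without it the sums were 40110.3 and 28591 in the ASX RNA, against 39881 and 25799.9 in the control RNA. Gbx2 of the thalamus list, Gpr6 of the striatum list and Crabp2 of the meninges list were not well above background. Choroid plexus had 2 of 11 markers above and 6 below, with sums of 78667 and 54774 in the ASX RNA, against 76376 and 57612 in the control RNA. Endothelium and pericytes had 3 of 10 above and 3 below, with sums of 24991 and 19817 in the ASX RNA, against 29199 and 18369 in the control RNA. Astrocytes had 1 of 10 above and 0 below, with sums of 235085 and 152480 in the ASX RNA, against 218161 and 167858 in the control RNA. For these last 3 lists the sums differed in opposite directions on the arrays. The part of these tissues in the Wnt values was not tested.

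**Figure D5:**
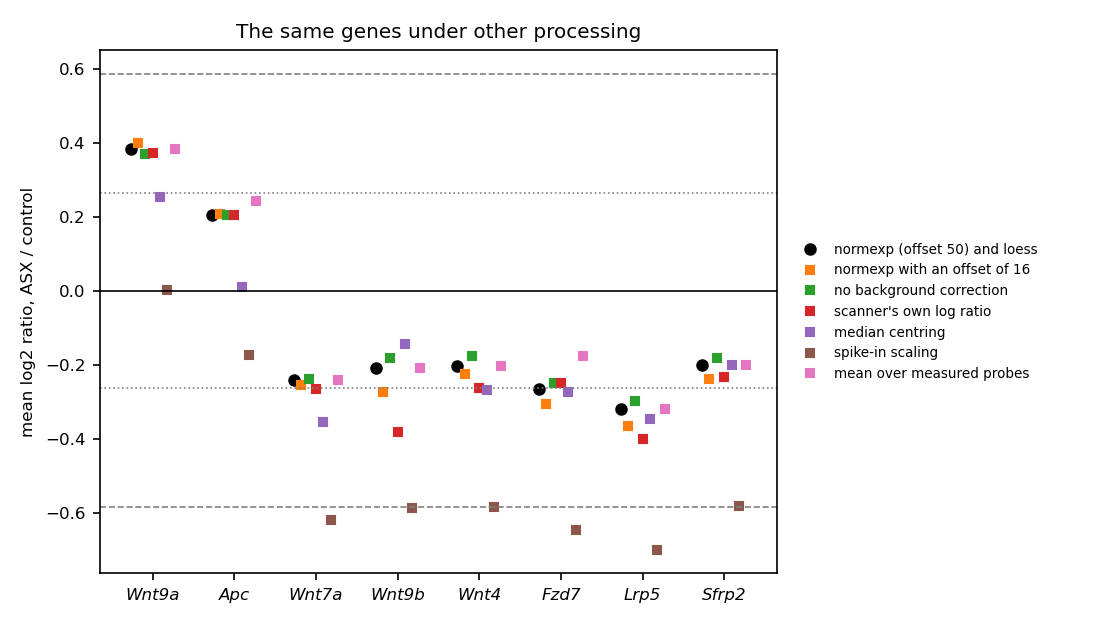
Mean log2 ratio of ASX over control for 8 genes of the set under the main processing (black circles) and 6 alternatives (coloured squares), with dotted lines at 1.2-fold and dashed lines at 1.5-fold. Spike-in scaling lowers each of them, to 0.0023 for Wnt9a and -0.70 for Lrp5, while the other settings keep Wnt9a and Apc above 0 and the other 6 genes below it.

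Brightness limits how firmly the smaller differences can be read. The lowest signal of a gene over its background, taken over both RNAs and both arrays, ran between 1.36 for Wnt16 and 168 for Ctnnb1, with a median of 4.24. It was under 3 for 13 of the 36 genes: Wnt1, Wnt5a, Wnt6, Wnt9b, Wnt11, Wnt16, Fzd5, Fzd7, Fzd8, Fzd10, Sfrp2, Sfrp5 and Dkk2. Wnt9a, Wnt7a, Wnt4, Wnt7b, Lrp5 and Apc lay above that mark. The signal over background was taken for the 36 genes only, so Lgr5 and the other pathway genes have no such value here.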

How the data were processed

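Total RNA was labelled with a two-color kit and read with Agilent Feature Extraction 11.0.1.1, per the submitters' processing notes. The deposited intensity was each spot's median signal with its median local background, not normalized, per the file headers. The deposited log10 values (the scanner's log ratio and the series' value table of Cy5 over Cy3, which equals log10 of the deposited processed signals within 5e-08) served as alternatives. The medians of the value table were 0.0050 and 0.0083, and its direction is not turned for the dye swap.

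Signals were corrected by limma's normexp method (offset 50; limma 3.58.1, R 4.3.3) and then normalized by loess within each array, where control spots had weight 0. Of 45018 features, 1639 control spots and 3 non-uniform outlier spots were left out; 0 spots were saturated. Spots of a probe were averaged, after each ratio had been turned to log2 of ASX over control. The RefSeq table of GRCm38.p6 gave 1 symbol to 23372 of 41171 probes, none to 17799 and several to 0. Of the probes 30078 (73.1%) were well above background in all 4 channels, each time in more than a 0.5 share of their spots, and 46 of the 57 probes of the Wnt set were among them. On arrays 1 and 2, 77.8% and 76.7% of mouse spots were well above background for the ASX RNA, and 78.2% and 75.8% for the control RNA. The number of arrays limits the precision. The design named a mean spot signal; the median is what was used. The procedure was tested on simulated data.

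The 43 genes and the lists were chosen with earlier results of these data known. Genes are named where they pass 1.5-fold or 1.2-fold on each array, have the 8 highest or 8 lowest means, were named in advance for their role, have probes that disagree in sign, or are among the 3 largest same-sign means of their pathway list. Other genes of the set are added with their values to account for all of them. Alternatives were another offset, no background correction, median centring, spike-in scaling, the deposited log ratios, other brightness filters, the mean over probes, genes with a symbol only, and each array alone.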

Additional observations from a re-analysis of the deposited data

How the results depend on the processing

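With 1 replicate there are no p-values, and depth of signal limits the dim genes. No paired analysis was possible because the arrays were counted as 1 replicate. Median centring put 0 genes of the set past 1.2-fold higher and 2 lower (Wnt7a and Wnt7b), and 12 of all genes past 1.5-fold lower. The median of the set was then -0.097, beside -0.104 over all measured genes and transcripts, so the set did not lie below them. The scanner's log ratio and the value table each put 1 (Wnt9b) past 1.2-fold lower, and 71 of all genes higher and 12 lower at 1.5-fold. With each of them the median of the set was -0.078, beside -0.0080 over all measured genes and transcripts. Spike-in scaling put 1 gene (Wnt7a) past 1.5-fold lower, 0 past 1.2-fold higher and 26 past 1.2-fold lower. It put 0 above 0 and 35 below 0 on both arrays. The median of the set was then -0.42, beside -0.384 over all measured genes and transcripts. Of all genes 3 were higher and 154 lower. An offset of 16 gave 28 of all genes higher. With no brightness filter the 7 genes not measured above entered the set, and its median was -0.0040, beside -0.041 in the main processing. Genes with a symbol only gave 4 of all genes higher. With 1 array left out, 2 genes were past 1.2-fold higher (Wnt9a with Fzd6 on array 2 or Wnt11 on array 1) and 2 to 3 lower (Wnt11 and Wnt7a on array 2, Fzd10, Fzd7 and Lrp5 on array 1), 11 to 14 were above 0 and 22 to 25 below, the median was -0.066 to -0.034, and 36 to 137 of all genes were higher and 28 to 47 lower at 1.5-fold. The cause of these shifts was not tested, beyond 1 array needing to pass in place of 2.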
